A study of Homo sapiens with 4 samples.

Results

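A keratin-positive state was compared between untreated and vemurafenib-resistant cells of A375, an established human melanoma line with the BRAF V600E mutation. Cells were chosen by measured transcripts. A cell was keratin-positive, or gated, when its unique molecular identifiers (UMIs, which count each captured transcript once) of SPANXB1, SPANXC, KRT81, KRT7, KRT80, C19orf33 and ANKRD1 summed to at least 10 per 10000 UMIs. This gate held 2819 of 6693 filtered S cells and 3943 of 4327 filtered RV cells, or 6762 of the 28640 filtered cells of the series. S cells were untreated, and RV cells had been made resistant to the BRAF inhibitor vemurafenib by 10 to 14 days of culture with it. Both carried the same mutation, and inhibitors had been taken away 24 h before capture. Each condition was 1 droplet library of 1 cell line without a replicate, so that no difference was tested and all 95% intervals cover counting error only. The drug, the culture and the library cannot be told apart.

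Keratins are the intermediate filament proteins of epithelial cells, and normal melanocytes lack most of them. KRT7, KRT80 and KRT81 encode keratins, and SPANXB1 and SPANXC belong to a family of cancer-testis genes on the X chromosome whose normal expression is in spermatids. ANKRD1 encodes an ankyrin repeat protein and is a common target of the YAP and TEAD transcription regulators, while C19orf33 encodes a small protein that is less well studied. Because the 7 genes chose the cells, their values are given only as a description, and all results concern the other genes.

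The gate passed 42.1% of S cells (40.9% to 43.3%) and 91.1% of RV cells (90.2% to 92.0%). Gated cells of both libraries had nearly the same gate level, with a median of 35.9 per 10000 in S and 36.4 in RV. The gate did not lie in an empty range, since 57 S cells were at 9 to 10 and 42 at 10 to 11, against 45 and 52 RV cells. The highest cell left out was at 9.998 in S and 9.98 in RV, and the lowest taken in was at 10.004 and 10.02. Gated cells had a median of 9530 UMIs in S and 11994 in RV, and summed to 29086866 and 51769310 UMIs. Mitochondrial genes took a median of 2.99% of their UMIs in S and 3.06% in RV.

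**Figure D1:**
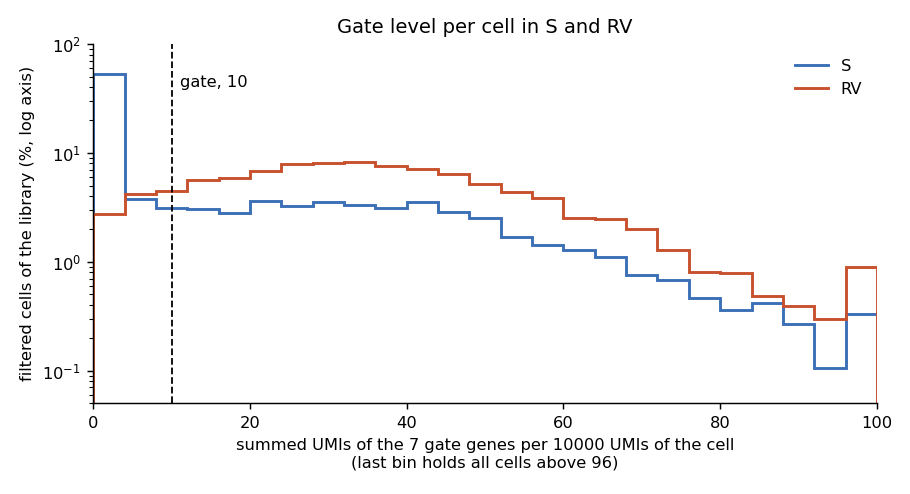
Summed UMIs of the 7 gate genes per 10000 UMIs of the cell (x axis) in filtered cells of S (blue) and RV (orange), in bins of 4, as percent of the library's cells on a log axis. Of the S cells 52.5% lie in the lowest bin, and above the gate at 10 (dashed line) both libraries spread over the same range.

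Of the filtered barcodes, 38 were listed in both libraries, 15 of them gated in both. All 11 markers of immune, endothelial, epithelial and fibroblast cells (PTPRC, CD3E, CD79A, LYZ, PECAM1, VWF, EPCAM, CDH1, COL1A1, DCN and LUM) were below 0.66 CPM (UMIs per 1000000) in gated cells. They summed to 1.93 CPM in S and 2.12 in RV, and PTPRC, CD3E and CDH1 had no UMI, which allows up to 0.103 CPM in S and 0.0579 in RV. The gated cells thus bore the keratins without the epithelial adhesion gene CDH1 and nearly without EPCAM.

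The state was not made of the same genes in both libraries. KRT81 was the leading gene of gated S cells, with 2439.8 CPM (2422 to 2458) and 63.5% of the gate sum, whereas gated RV cells had 633 CPM (626 to 639.7) and 15.8% of the sum. SPANXB1 went the other way, with 426 CPM in S (419 to 434) and 1378 in RV (1368 to 1388), and it was the leading gene of RV with 34.4% of the sum. The other gate genes were at 259 and 911 CPM for C19orf33, 73.8 and 199 for SPANXC, 365 and 637 for KRT7, 67.1 and 66.1 for KRT80, and 215 and 183 for ANKRD1, in S and RV. SPANXB1 and SPANXC are near-identical in sequence, so that the split of UMIs between them is uncertain.

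A UMI of KRT81 was present in 2818 of 2819 gated S cells but in 68.3% of gated RV cells (66.8% to 69.7%). KRT81, KRT7 and KRT80 together made up 74.7% of the gate sum in S and 33.3% in RV, where SPANXB1 alone made up more. The name keratin-positive thus described the S cells better than the RV cells, of which 50 had no UMI of these keratins, and the cells are called gated from here on. KRT18, a keratin outside the gate, had 1076 and 1592 CPM in gated cells of S and RV. Ungated cells had 510 and 939 CPM of it, so that KRT18 was also expressed outside the gate, at a lower level in each library. It was higher with a higher gate, from 760 CPM at 10 to 20 to 1286 above 40 in S. In RV it went from 1207 to 1785 CPM. All 7 gate genes were found in 310 of 2819 gated S cells and 732 of 3943 gated RV cells. Of the gate genes summed, S had 3845 CPM and RV 4006 CPM, so that the level was matched and the make-up was not.

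**Figure D2:**
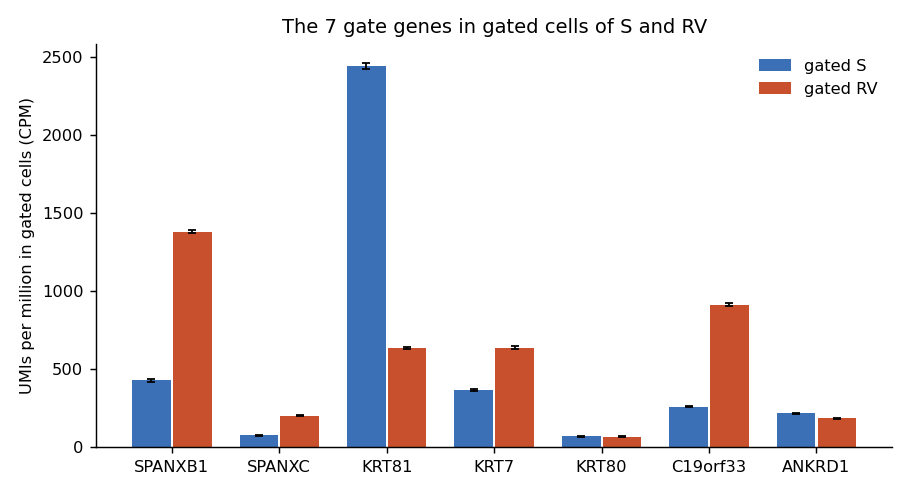
CPM (y axis, linear from 0) of each gate gene in gated cells of S (blue) and RV (orange), with exact Poisson 95% intervals as error bars. KRT81 stands at 2439.8 in S and 633 in RV, and SPANXB1 at 426 in S and 1378 in RV.

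Outside the gate genes, gated RV and S cells were alike for most genes, and a short list stayed apart. Among 5722 genes with a mean of at least 10 CPM in gated S and RV cells, 55 were at least 2-fold higher in RV (0.961% of the genes tested) and 30 at least 2-fold lower (0.524%), or 1.49% in either direction. A gene could reach this mean through S alone or RV alone. A ratio of less than 1.5-fold was found for 94.5% of the genes. Over all filtered cells, 131 of the same genes were at least 2-fold higher in RV (2.29%) and 45 lower (0.786%), or 3.08% in either direction.

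Fewer genes differed between the libraries once the summed gate level was matched. Of the 131 genes higher in RV over all cells, 50 stayed at least 2-fold higher in gated cells, 45 were between 1.5-fold and 2-fold, and 36 were under 1.5-fold. Of the 45 lower genes, 17 stayed at least 2-fold lower, 13 were between 1.5-fold and 2-fold, and 15 were under 1.5-fold. Another 5 higher and 13 lower genes passed 2-fold only in gated cells. The standard deviation of the log2 ratio across the 5722 genes was 0.35 in gated cells and 0.41 over all cells.

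**Figure D3:**
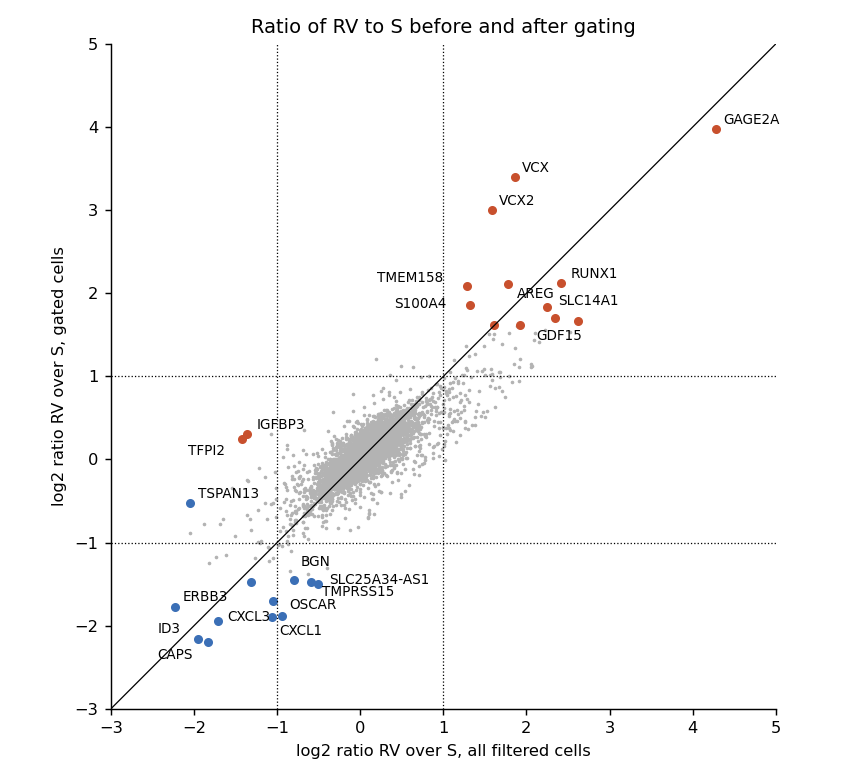
Log2 ratio of RV over S in all filtered cells (x axis) and in gated cells (y axis), with 1 point per gene, the genes with the most extreme ratios or shifts coloured (orange above 0 and blue below 0 in gated cells) and dotted lines at 2-fold. LINC01419, at -10.75 and -10.49, is outside the axes, and TFPI2, IGFBP3 and TSPAN13 lie far above the diagonal line of equal ratios.

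The largest difference left was LINC01419, a long non-coding RNA gene on chromosome 8 (chr8:83403758-83408900, GRCh38). Gated S cells had 139 CPM (135 to 143), gated RV cells 0.0966 (0.0314 to 0.225), ungated S cells 226 and ungated RV cells 0.285. This was 1438-fold lower in gated RV than in gated S cells (616 to 4433), from 4041 UMIs in S and 5 in RV. With every cell thinned to 5239 UMIs, 44.9% of gated S cells (43.0% to 46.8%) and 0.0521% of gated RV cells (0.00631% to 0.188%) had a UMI of it. S cells inside and outside the gate thus expressed it, and RV cells were near 0 in both.

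The genes ID3 and ID1 also stayed lower in gated RV cells. ID proteins bind helix-loop-helix transcription factors and keep them from DNA, and ID1 and ID3 are classic targets of bone morphogenetic proteins (BMP). ID3 had 273 CPM in gated S (267 to 279) and 61.3 in gated RV (59.2 to 63.4), a 4.45-fold lower level (4.27 to 4.64). ID1 had 239 CPM (233 to 245) and 103 (99.8 to 105), a 2.33-fold lower level (2.25 to 2.41).

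Neither gene was a marker of the state in S, since ungated S cells had 228 CPM of ID3 and 219 of ID1. At equal depth a UMI of ID3 was found in 65.9% of gated S cells (64.0% to 67.7%) and 22.3% of gated RV cells (21.0% to 23.7%), so that it was lower in share as well as in sum. HES1, a transcriptional repressor best known as a Notch target, had 337 CPM in S and 171 in RV, 1.97-fold lower. Of the 21 listed genes of the ID and BMP response, 4 were abundant enough (ID1, ID3, HES1 and FST). Of these, 2 were at least 2-fold lower and none higher, against 0.524% and 0.961% of all genes tested. Their median log2 ratio was -1.10, against 0.07 for all genes tested, and FST, an activin-binding protein, had 46.3 and 51.7 CPM, with a log2 ratio that turned from 0.16 to below 0 in 2 alternative settings. PMEPA1, an inhibitor that TGF-beta induces, had 143 CPM in S and 64.6 in RV, 2.21-fold lower (2.11 to 2.31). Without KRT81 in the gate sum, and in cells low in cycle genes, its ratio was under 2-fold. It was the only 1 of 9 tested TGF-beta genes at least 2-fold apart, and the median of that list was -0.11.

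CXCL1, CXCL3 and CXCL8, chemokines that attract neutrophils, were at least 2-fold lower in gated RV cells. CXCL1 had 239.9 CPM in gated S (234 to 246) and 64.5 in gated RV (62.3 to 66.7), 3.72-fold lower (3.57 to 3.88). CXCL3 had 45.4 CPM (43.0 to 47.9) and 11.8 (10.8 to 12.7), 3.86-fold lower (3.50 to 4.25). CXCL8 had 136 CPM (131 to 139.8) and 52.3 (50.3 to 54.3), 2.59-fold lower (2.47 to 2.72).

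In S, CXCL1 and CXCL8 belonged with the gate, since ungated S cells had 54.5 and 44.1 CPM. In RV the ungated cells were above the gated ones, with 98.2 CPM of CXCL1 and 101.01 of CXCL8. Gating thus widened the difference, from a log2 ratio of -1.06 to -1.89 for CXCL1 and from -0.63 to -1.37 for CXCL8. CXCL8 was at -2.18 with a gate of 40 and -1.97 in cells low in cycle genes, and CXCL3, at -1.95, was at -1.35 with KRT81 left out of the gate sum. Of 25 listed cytokine and chemokine genes, 11 were tested, with 3 at least 2-fold lower (0.524% of all genes tested were so), none at least 2-fold higher, 4 above S and a median of -0.63. IL24, a cytokine of the IL-10 family, stood on the other side with 197 CPM in S and 312 in RV, 1.59-fold higher (1.54 to 1.64), and in cells low in cycle genes its log2 ratio was 1.46 against 0.67.

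The promoters of the chemokine genes are shown because these genes were lower together. Each line is the RefSeq window from 250 bases before to 50 bases after the gene start, 5′ to 3′ on the strand of the gene, in GRCh38.p14. Capitals mark the letters GGAATTTCC, searched on both strands and chosen after these windows had been read.
CXCL1, chr4:73869143-73869442, plus strand: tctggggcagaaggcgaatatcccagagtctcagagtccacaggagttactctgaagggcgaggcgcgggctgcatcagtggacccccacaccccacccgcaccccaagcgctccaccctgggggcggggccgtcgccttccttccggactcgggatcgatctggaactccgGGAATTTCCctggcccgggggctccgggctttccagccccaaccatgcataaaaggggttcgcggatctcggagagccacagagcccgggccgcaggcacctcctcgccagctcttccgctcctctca
CXCL3, chr4:74038640-74038939, minus strand: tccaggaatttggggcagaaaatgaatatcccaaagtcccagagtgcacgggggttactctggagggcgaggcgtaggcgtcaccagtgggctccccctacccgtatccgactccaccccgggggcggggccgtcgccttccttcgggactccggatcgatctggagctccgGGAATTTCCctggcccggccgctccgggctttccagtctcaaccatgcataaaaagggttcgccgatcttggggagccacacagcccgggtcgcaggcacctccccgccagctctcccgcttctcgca
CXCL8, chr4:73740319-73740618, plus strand: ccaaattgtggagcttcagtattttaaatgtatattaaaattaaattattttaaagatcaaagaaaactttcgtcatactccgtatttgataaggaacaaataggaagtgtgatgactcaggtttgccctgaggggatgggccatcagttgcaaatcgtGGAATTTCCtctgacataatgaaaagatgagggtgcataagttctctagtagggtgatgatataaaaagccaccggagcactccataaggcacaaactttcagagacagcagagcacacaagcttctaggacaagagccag
These letters occurred in 162 of 35116 such windows, or 0.461%, a share that lends no support since the letters were taken from these genes. In CXCL1 and CXCL3 they began 78 bases before the gene start, and in CXCL8 91 bases before it.

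The remaining genes among the 12 lowest ratios were of mixed function. CAPS, a calcium-binding protein, had 131 CPM in gated S (127 to 135) and 28.6 in gated RV (27.1 to 30.1), 4.59-fold lower, and ungated cells had 136 in S and 169 in RV. Taken over each whole set, gated RV cells had the lowest CAPS. Its log2 ratio of -2.20 was -1.57 with KRT81 left out of the gate sum and -2.97 at a gate of 40. ERBB3, the neuregulin receptor that neural crest and Schwann cell precursors use, had 34.4 CPM (32.3 to 36.6) and 10.1 (9.24 to 10.99), 3.41-fold lower, with 92.7 and 72.8 in ungated cells. With KRT81 left out of the gate sum it was under 2-fold, at -0.95 on the log2 scale.

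OSCAR, an immunoglobulin-like receptor first found on osteoclasts, and SLC25A34-AS1, an antisense transcript, were higher in gated than in ungated cells of both libraries. OSCAR had 22.2 CPM in gated S, 5.99 in gated RV and at most 1.71 in ungated cells of either library, and SLC25A34-AS1 had 17.8, 6.30 and at most 1.71. TMPRSS15, the enteropeptidase gene, differed clearly by the gate only in S, with 34.7 CPM in gated and 5.22 in ungated S cells against 12.5 and 11.4 in RV. CLMP, an adhesion molecule of epithelial junctions, had 39.5 and 12.2 CPM in gated S and RV, BGN, the proteoglycan biglycan, 24.5 and 8.96, and APOLD1, an apolipoprotein L domain protein, 19.97 and 7.21. These last genes were 3.24-fold, 2.74-fold and 2.77-fold lower. In cells low in cycle genes OSCAR was under 2-fold. Strand use in the counting is not stated, so that SLC25A34-AS1 cannot be told apart from its partner gene.

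Genes of the male germ line on the X chromosome led the list of those higher in gated RV cells. GAGE2A, a cancer-testis antigen gene (chrX:49589529-49596827), had 6.36 CPM in gated S (5.48 to 7.35) and 99.9 in gated RV (97.2 to 103), 15.7-fold higher (13.6 to 18.3). At equal depth a UMI of it was present in 3.21% of gated S cells (2.58% to 3.95%) and 32.4% of gated RV cells (30.9% to 33.9%). VCX and VCX2, variable charge genes of the testis, had 2.72 and 4.30 CPM in S and 28.5 and 34.3 in RV, 10.5-fold (8.38 to 13.4) and 7.99-fold (6.66 to 9.66) higher.

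VCX and VCX2 differed most through the gate in S, where ungated cells had 12.0 and 17.0 CPM, above the gated ones. Over all cells their log2 ratios were 1.86 and 1.58, and in gated cells 3.39 and 2.998, and in gated cells low in genes of the cell cycle 4.34 and 3.97. The GAGE and VCX genes are families of near-identical copies, and the UMIs of any 1 copy are uncertain. GAGE1, whose gene overlaps that of GAGE2A, had 31.1 CPM in S and 59.3 in RV. Of the 11 tested members of the cancer-testis list, GAGE2A alone was at least 2-fold higher. VCX and VCX2 are not on that list, and SPANXB1 and SPANXC were not tested because they are gate genes. The median of the list was 0.43 and 9 members were above S, where 0.961% of all genes tested were at least 2-fold higher and 61.4% above S. PAGE5 had 492 and 477 CPM.

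A growth factor and a transcription factor were also detected in a larger share of gated RV cells. AREG, a ligand of the EGF receptor, had 25.2 CPM in gated S (23.4 to 27.1) and 109 in gated RV (106 to 112), 4.32-fold higher (4.00 to 4.67), with 35.0 and 41.3 in ungated S and RV cells. RUNX1, a transcription factor of blood cell development, had 13.6 CPM (12.3 to 15.0) and 59.2 (57.1 to 61.4), 4.36-fold higher (3.93 to 4.86), with 9.31 and 75.7 in ungated cells. RUNX1 was thus a gene of RV in and out of the gate, whereas AREG was highest in gated RV cells. At equal depth the share of gated cells with a UMI was 10.0% in S and 30.1% in RV for AREG, and 7.06% and 23.2% for RUNX1.

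GDF15, a secreted stress cytokine of the TGF-beta superfamily, had 45.6 CPM in gated S (43.2 to 48.1) and 148 in gated RV (145 to 151), 3.25-fold higher (3.06 to 3.44). Ungated cells had 13.2 CPM in S and 52.9 in RV, so that GDF15 was higher in gated cells within each library. In the gated cells low in cycle genes (380 of S and 442 of RV) its log2 ratio was 3.16, against 1.70 in all gated cells, and that of RUNX1 was 2.74 against 2.12. TMEM158, a membrane protein known from Ras-induced senescence, had 4.33 and 18.5 CPM, 4.26-fold higher (3.54 to 5.17). SLC14A1, a urea transporter, had 36.7 and 131 CPM, 3.58-fold higher, and APOBEC3G, a cytidine deaminase that restricts retroviruses, 16.1 and 49.3 CPM, 3.07-fold higher. The non-coding genes AC004585.1 and GAS6-AS1 completed the 12, at 3.17-fold and 3.07-fold, the second an antisense transcript with the limit given above.

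**Figure D4:**
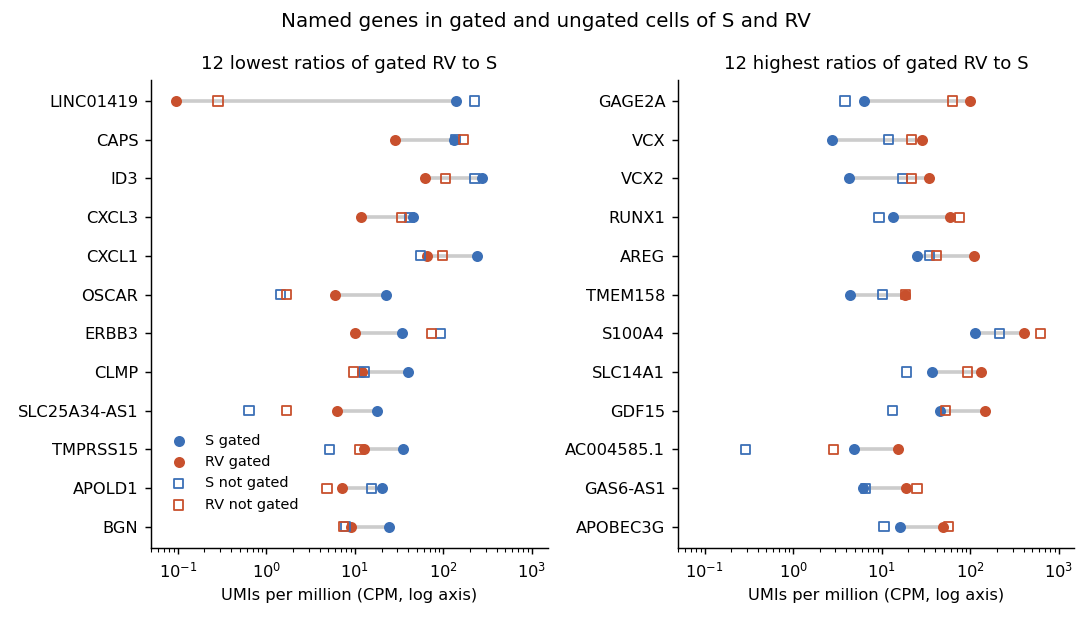
CPM on a log axis (x axis) of the 12 lowest and the 12 highest ratios of gated RV to gated S, in gated cells (filled circles) and ungated cells (open squares) of S (blue) and RV (orange). Grey bars join the gated values, and for each of the 12 highest ratios but AC004585.1 both RV sets lie above both S sets.

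The calcium-binding S100 proteins included 2 genes at least 2-fold higher. S100A4, which promotes cell motility, had 112 CPM in gated S (108 to 116) and 407 in gated RV (401 to 412), 3.64-fold higher (3.51 to 3.78), and 215 and 617 in ungated cells. S100A2 had 226 and 468 CPM, 2.08-fold higher (2.02 to 2.13), which was just under 2-fold in 6 of 21 alternative settings. Of the 8 tested, 2 were at least 2-fold higher and 7 above S, with a median of 0.53, where 0.961% and 61.4% of all genes tested were so. S100A6, the most abundant, had 9619 and 13938 CPM. S100A3 was the exception at 37.3 and 24.6 CPM.

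Targets of p53, the tumour suppressor that answers DNA damage and other stress, had the highest median of the lists, with most members short of 2-fold. CDKN1A, the cell cycle inhibitor p21, had 115 CPM in gated S (111 to 119) and 242 in gated RV (238 to 247), 2.11-fold higher (2.03 to 2.19). DDB2, of DNA damage recognition, had 33.8 and 72.6 CPM (2.15-fold), and FDXR, a mitochondrial reductase, 23.1 and 47.8 (2.07-fold). Of 17 tested targets 4 were at least 2-fold higher, GDF15 included, 13 were not, none was at least 2-fold lower and 14 were above S, against 0.961% at least 2-fold higher and 61.4% above S among all genes tested. The number at least 2-fold higher was 2 to 6 over the alternative settings, and both other scalings of library size left 3, with FDXR under 2-fold. CDKN1A was just under 2-fold with at least 2000 genes (0.97 on the log2 scale), and DDB2 at equal depth (0.97). Their median was 0.67 in gated cells, 0.60 over all cells and between 0.55 and 0.70 in every alternative setting. MDM2, which degrades p53, had 19.5 and 35.2 CPM, and BAX, which opens mitochondria in apoptosis, 129.96 and 207. The ratio was not found for all targets, since TP53I3 had 63.8 and 63.6 CPM and SESN2 20.04 and 19.2. BIK, a BH3-only protein of the BCL2 family, was 2.22-fold higher (18.9 and 41.9 CPM) and under 2-fold without KRT81 in the gate sum.

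Genes of the cell cycle were compared in 2 lists. Of 29 G1/S genes tested 26 were above S, none by 2-fold, with a median of 0.35 (-0.03 in cells low in cycle genes), for example PCNA, the replication clamp, at 31.8 and 52.0 CPM and MCM4, of the replicative helicase, at 15.0 and 25.9. The 40 G2/M genes had a median of 0.03 with 22 above S, and this median turned below 0 in 5 of the 21 alternative settings. Among all genes tested 61.4% were above S and 0.961% at least 2-fold higher, so that none by 2-fold is near the background. TOP2A, topoisomerase II alpha, had 128 and 76.5 CPM, and its log2 ratio of -0.74 turned to 0.32 in cells low in cycle genes. Those cells were chosen for low levels of the genes of both lists, so that list values there cannot be read as a result. In the gated cells low in cycle genes CDKN1A was higher by 1.33 on the log2 scale.

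Several lists differed by less than 2-fold in every member and mostly in 1 direction. For MHC class I presentation 13 of 14 genes were above S with a median of 0.30, led by HLA-C, which presents peptides to T cells, at 47.3 and 91.7 CPM. Heat shock proteins had 11 of 12 above with a median of 0.43, led by HSPA8, a constitutive chaperone, at 198 and 329 CPM. Cholesterol and fatty acid synthesis had 14 of 15 above (median 0.31, INSIG1, the sterol sensor partner, at 14.7 and 25.5 CPM), and glycolysis and hypoxia genes 17 of 19 (median 0.34, BNIP3, a mitophagy receptor, at 100.8 and 182 CPM). Among all genes tested 61.4% were above S, 0.961% at least 2-fold higher and 0.524% at least 2-fold lower. In none of these lists did a gene pass 2-fold over all gated cells, which is near that background for lists of this size. Single genes did so in alternative settings. HLA-C reached 1.24 on the log2 scale and ENO2, of the glycolysis list, 1.11 without KRT81 in the gate sum. HSPA8 reached 1.09 in cells low in cycle genes. In the integrated stress and unfolded protein response 20 of 25 genes were below S with a median of -0.22, SLC7A11, the cystine transporter, at 17.9 and 9.41 CPM (log2 ratio -0.93, and -1.65 in cells low in cycle genes).

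Other lists went both ways. Interferon response genes had 4 above and 5 below S with a median of -0.07, AP-1 and immediate-early genes 6 and 5 with 0.23, metalloproteinases and their inhibitors 5 and 4 with 0.07, and extracellular matrix genes 6 and 10 with -0.11. Each of these medians had the other sign in at least 1 alternative setting. Among all genes tested 61.4% were above S, 0.961% at least 2-fold higher and 0.524% at least 2-fold lower. Single members of 2 of these lists, and of the lists of IGF-binding genes (7 tested) and actin genes (23 tested), were at least 2-fold higher. BGN, described above, was the 1 extracellular matrix gene at least 2-fold lower. IGFBP4, which binds insulin-like growth factors, had 31.3 CPM in gated S (29.3 to 33.4) and 91.9 in gated RV (89.4 to 94.6), 2.94-fold higher (2.74 to 3.16). ACTA2, the actin of smooth muscle, had 8.32 and 22.7 CPM (2.73-fold). PLAT, tissue plasminogen activator, had 18.5 and 47.6 CPM (2.58-fold, and 2.02 on the log2 scale at a gate of 40). It is listed with the metalloproteinases and their inhibitors but is a serine protease. COL13A1, a transmembrane collagen, had 7.56 and 16.7 CPM (2.21-fold), and was under 2-fold in 3 alternative settings. Both ACTA2 and COL13A1 passed the minimum mean of 10 CPM only through RV, and BGN only through S. Ungated RV cells had 26.2 CPM of ACTA2 and 81.1 of PLAT, above the gated ones, and 21.3 of IGFBP4 and 7.11 of COL13A1, below them.

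Several lists had medians nearer to 0 in gated cells than over all cells. The 15 tested YAP-TEAD targets, among them AXL and CYR61, had a median of 0.49 with 4 at least 2-fold higher and 1 lower over all cells, and 0.15 with none in gated cells. Among all genes tested 2.29% were at least 2-fold higher and 0.786% lower over all cells, and 0.961% and 0.524% in gated cells, so that a list of this size with none is near the background. Since ANKRD1, a target of the same regulators, helped to choose the cells, the shift of this list is not independent of the gate. MHC class II genes had a median of -0.91 over all cells and -0.29 in gated cells, and HLA-DRA, the class II alpha chain, went from a log2 ratio of -2.05 to -0.88. Gated cells had 28.9 CPM of it in S and 15.7 in RV, and ungated cells 181 and 191. Without KRT81 in the gate sum, the HLA-DRA ratio was 0.42 and that of the class II list 0.33, so that their direction depended on how the state was defined.

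Neural crest and melanocyte genes, a list that also holds GDF15, went the same way, from a median of -0.63 with 3 genes higher and 5 lower to -0.20 with 1 higher (GDF15) and 1 lower (ERBB3), and to 0.12 when KRT81 was left out of the gate sum. The shares over all genes tested are those given for the YAP-TEAD list. The sum of the list was 328 CPM in gated S and 384 in gated RV, opposite in sign to its median, and without GDF15 it was 282 and 237 CPM, on the side of the median. SOX10, a neural crest transcription factor, had 56.4 CPM in gated S and 34.4 in gated RV, against 114 and 125 in ungated cells. TFPI2, an inhibitor of serine proteases, had 21.1 and 25.03 CPM in gated cells and 104 and 20.5 in ungated cells of S and RV. IGFBP3, which binds insulin-like growth factors, had 9.63 and 11.9 CPM in gated and 53.9 and 31.6 in ungated cells, and TSPAN13, a tetraspanin, 15.1 and 10.5 in gated and 78.6 and 34.4 in ungated cells. These 3 genes were at least 2-fold lower in RV over all cells and within 1.5-fold in gated cells. With KRT81 left out of the gate sum the log2 ratio of IGFBP3 was 0.98 and that of TSPAN13 turned from -0.53 to 0.06.

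**Figure D5:**
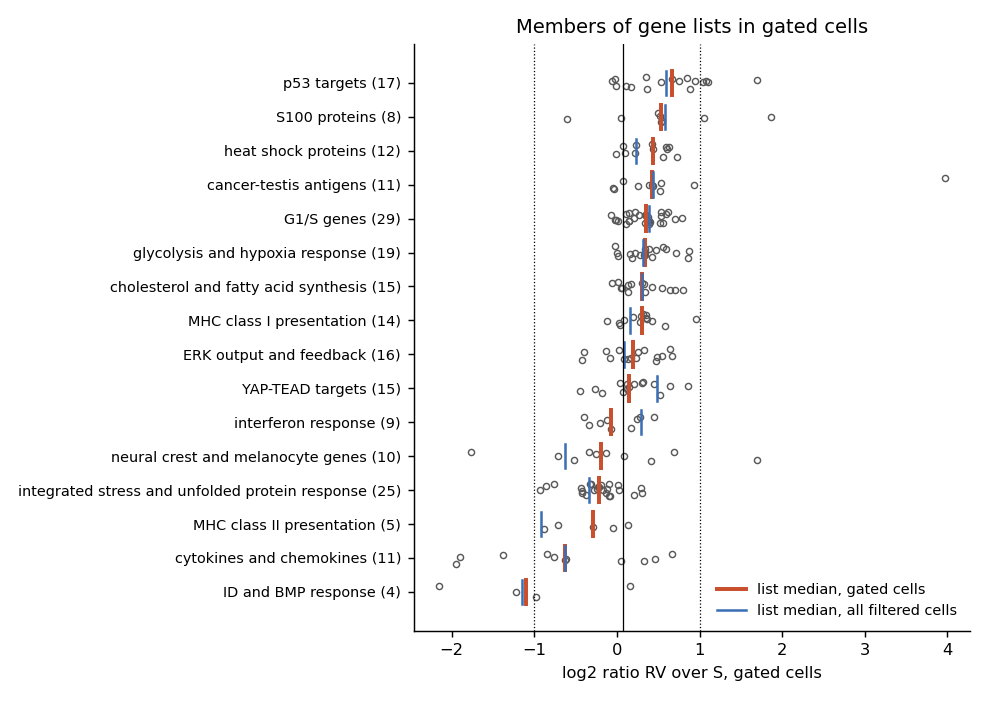
Log2 ratio of RV over S in gated cells (x axis) for each tested member (open circles, spread vertically for sight) of gene lists, with the number tested in brackets, the list median in gated cells (orange) and over all filtered cells (blue), the median of all genes tested (black line) and 2-fold (dotted lines). The p53 targets have a median of 0.67, and the ID and BMP genes of -1.10, while YAP-TEAD and MHC class II medians lie nearer to 0 in gated than in all cells.

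The genes of the 12 highest and 12 lowest ratios and a few others were followed across gate levels. At gate levels of 10 to 20, 20 to 40 and above 40 there were 496, 1129 and 1194 S cells and 606, 1664 and 1673 RV cells. Of 28 such genes at least 2-fold apart over the whole gate, with the other 57 not split in this way, 24 were so at the lowest level and 28 at each higher level. The exceptions at the lowest level were CXCL8, SLC25A34-AS1 (8.26 CPM in S and 4.71 in RV), ID1 (250.5 and 149.7) and PMEPA1. ID3 had 267, 269 and 279 CPM in these S cells and 99.4, 66.5 and 44.9 in the RV cells, so that it was level in S and lower with a higher gate in RV. CXCL8 had 107, 147 and 135 CPM in S and 76.2, 68.2 and 29.9 in RV, and CXCL1 199, 234 and 262 in S and 88.8, 71.3 and 50.8 in RV. CXCL3 was lower with a higher gate in both libraries, at 79.7, 46.6 and 31.1 CPM in S and 25.4, 12.5 and 7.01 in RV. In RV all 3 chemokines were lowest at the highest gate level, and in S this held for CXCL3 alone.

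CAPS was lower with a higher gate in both libraries, at 232, 131 and 92.7 CPM in S and 87.8, 27.7 and 11.8 in RV, and ERBB3 likewise at 72.9, 34.5 and 19.5 in S and 32.7, 9.31 and 4.14 in RV. GDF15 was higher with the gate in both, at 16.7, 44.4 and 57.8 CPM in S and 89.9, 138 and 174 in RV. GAGE2A had 6.36, 6.73 and 6.003 CPM in S and, with a higher gate, higher levels of 83.4, 98.1 and 106 in RV, and SLC14A1 had 41.1, 35.96 and 35.7 in S and 139, 131 and 129 in RV. CDKN1A had 159, 114 and 99.5 CPM in S and 327, 250.2 and 210.0 in RV.

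Since KRT81 made up most of the gate in S, RV cells with and without a UMI of it were set side by side. Cells without a UMI were shallower (median of 11164 against 12381 UMIs), and ungated RV cells had 37.3 CPM of KRT81, so that a UMI does not mark expression in every cell. The 2692 gated RV cells with a KRT81 UMI and the 1251 without one had 664 and 570.5 CPM of KRT7, 904 and 928 of C19orf33, and 1409 and 1302 of SPANXB1. RUNX1 had 51.8 CPM in the cells with KRT81 and 77.6 in those without, GDF15 159 and 121, S100A4 392 and 443, ID3 58.3 and 68.5, and CXCL1 64.2 and 65.2. In both sets RUNX1, GDF15, S100A4, ID3 and CXCL1 each lay on the same side of the gated S level. KRT7, C19orf33 and SPANXB1 helped to choose the cells, so that their values are a description only. The comparison restricted to cells with a KRT81 UMI gave 56 genes at least 2-fold higher and 30 lower, of which 53 and 28 were also found without this restriction.

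A UMI of LINC01419 was present in 59.5% of gated S cells (57.7% to 61.3%). At this level a cell without the transcript cannot be told apart from one in which it was not sampled. Those with a UMI had a median of 10142 UMIs and those without 8809.5. GDF15 had 52.5 CPM in the S cells with LINC01419 and 33.6 in those without, TOP2A 148 and 93.4, and CXCL8 126 and 152. Against the 1142 S cells without it, 51 genes were at least 2-fold higher and 34 lower in gated RV, of which 45 and 26 were also found against all gated S cells.

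By chromosome, the genes of chromosome 18 had a median log2 ratio of 0.23 in gated cells. Above S were 66 of its 83 genes (79.5%), against 61.4% of all genes tested. The medians of the other chromosomes were between 0.02 and 0.11. Over all cells the median of chromosome 18 was 0.37, and it took 0.37% of the UMIs of ungated S cells, 0.46% of gated S cells, 0.43% of ungated RV cells and 0.54% of gated RV cells. In cells low in cycle genes the median was 0.03, and in every other alternative setting it was between 0.16 and 0.25.

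Of the 12 highest ratios, all 12 were at least 2-fold under each of the 19 alternative settings that can move a ratio, and of the 12 lowest 10 were, the exceptions being ERBB3 and OSCAR. LINC01419 is counted without the setting that leaves out the cells with a UMI of it, which cannot show its ratio. Both sets of 12 were chosen as the most extreme in these same cells, so that staying past 2-fold lends little support. GAGE2A, VCX, VCX2, TMEM158, AC004585.1 and GAS6-AS1 passed the minimum mean of 10 CPM only through RV. LINC01419, OSCAR, SLC25A34-AS1, APOLD1 and BGN passed it only through S. Matching the RV cells to the distribution of gate levels in S left 52 genes at least 2-fold higher and 31 lower, of which 51 and 29 were the same genes. This matching could change little, since the gate levels were already nearly alike, and it left the make-up of the gate sum unmatched.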

How the data were processed

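Single-cell RNA was captured in droplets from A375 cells, with 1 library per condition. Each deposited count is a whole number of UMIs for 1 gene in 1 barcode, made by the authors before any scaling. The submitters' processing notes name Cell Ranger, bcl2fastq 2.20.0.422 and the genome build GRCh38. Strand use in the counting is not given in the sources used here. Groups were taken from the sample labels.

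Barcodes with at least 500 genes and at most 20% mitochondrial UMIs were kept (6693 of 6695 in S, 4327 of 4328 in RV), and the gate was applied to each. UMIs were summed over the gated cells of a library and scaled to CPM with the library's gated total. Genes with a mean of at least 10 CPM were compared, leaving out the gate genes, and a ratio of at least 2-fold was counted as a difference. With 1 library per condition no p-value was computed. Intervals are exact (Poisson for levels, conditional binomial for ratios, Clopper-Pearson for shares) at 95% and cover counting error only. A gene with no UMI was taken at 3 UMIs. For shares at equal depth each cell was thinned to 5239 UMIs, which left out 141 gated S and 104 gated RV cells.

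Genes were named by rule: the 12 highest and 12 lowest ratios in gated cells, the 5 genes whose log2 ratio differed most between all and gated cells, and in each list the highest and lowest member and up to 2 more past 2-fold. AXL, BAX, BNIP3, CYR61, FDXR, GAGE1, HES1, MDM2, PCNA, S100A6, SOX10 and TP53I3 fall outside this rule and were named after their values had been seen. The cells and the gene lists were chosen with earlier results of these data known. Doublets were not removed in the values reported. As an alternative, the barcodes of highest score were left out at 0.8% per 1000 barcodes (358 in S, 150 in RV), since the scoring tool's own threshold marked 5 and 2. The background of free RNA was not estimated on its own. Ungated S cells had 68.9 CPM of KRT81 and 2.46 of ANKRD1, against 2439.8 and 215 in gated S cells. The same genes set the ungated cells apart, so that these values do not bound the background, in RV or for other genes. Coordinates were taken from GENCODE 29 and promoters from RefSeq (GRCh38.p14). The computation was checked on simulated counts. Python 3.11.15, numpy 2.4.6, pandas 2.3.3, scipy 1.17.1, scanpy 1.11.5, matplotlib 3.10.9, R 4.3.3, Seurat 5.3.0 (cycle scores) and edgeR 4.0.16 (TMM factors only) were used.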

Additional observations from a re-analysis of the deposited data

Results flagged for a closer look

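The gate was also applied to the library labelled RVT, of cells resistant to vemurafenib and trametinib, which enters none of the comparisons above. There 81.72% of 9313 filtered barcodes passed (80.9% to 82.5%), against 42.1% in untreated cells, and in the RVC library, resistant to vemurafenib and cobimetinib, 1 of 8307 passed. Gated RVT cells had a median of 3000 UMIs, and SPANXB1 made up 73.4% of their gate sum, with KRT81 at 106 CPM.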

How the results depend on the processing

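No paired analysis was possible because the labels give no replicate numbers and each condition is 1 library. Over 21 alternative settings, 3 of them (cells with a KRT81 UMI, cells with KRT81 and SPANXB1, no shared barcodes) chosen after seeing the data, the number of genes at least 2-fold apart moved with the CPM minimum: 121 higher and 92 lower at a mean of at least 3 CPM (9529 genes tested), and 16 and 10 at 50 CPM (1897 genes tested). In the few cells low in cycle genes it was 73 higher and 58 lower, of which 36 and 20 were the same genes. In all other settings it was 42 to 59 higher and 29 to 35 lower. Without KRT81 in the gate sum, which left 1596 S cells, it was 54 and 32, of which 41 and 24 were the same genes. A gate of 40 gave 57 and 32, of which 43 and 25 were the same genes. TMM scaling, which took the median of all genes from 0.07 to 0.01, gave 44 and 34, so that 56.4% of the called genes were higher against 64.7%, and leaving ribosomal and mitochondrial genes out of the library size gave 55.3%. The CPM minimums cannot move a gene's ratio. In the other 19 settings, 1264 of 1633 values for 86 named genes stayed within their counting interval and 369 moved, leaving out LINC01419 where its cells were left out. The sign turned in at least 1 setting for 16 of the 86, with HLA-DRA going from -0.88 to 0.42 and TSPAN13 from -0.53 to 0.06 with KRT81 left out of the gate sum, and TOP2A from -0.74 to 0.32 in cells low in cycle genes. TOP2A is itself among the cycle genes that chose those cells. Of 35 named genes at least 2-fold apart, all named for large ratios in the same cells, 27 were so in each of these settings. The exceptions were ERBB3 (-0.95), PMEPA1 (-0.82) and BIK (0.84) without KRT81 in the gate sum, where S100A2 (0.92) and COL13A1 (0.86) were lowest as well, OSCAR (-0.97) in cells low in cycle genes, CDKN1A (0.97) with at least 2000 genes, and DDB2 (0.97) at equal depth. In cells low in cycle genes GDF15 (3.16), RUNX1 (2.74), VCX (4.34), VCX2 (3.97), CXCL8 (-1.97), OSCAR, IL24 (1.46), SLC7A11 (-1.65), HLA-DRA (-0.21) and TOP2A, among genes described above, moved by over 1.5 times, as did PLAT (2.02), CAPS (-2.97) and CXCL8 (-2.18) at a gate of 40, and CXCL3 (-1.35), CAPS (-1.57), IGFBP3 (0.98), HLA-DRA, TSPAN13 and ERBB3 without KRT81 in the gate sum. LINC01419 was at -7.93 in cells low in cycle genes, which cannot be read as a smaller difference. It had only 5 UMIs over all gated RV cells, and a gene with no UMI was taken at 3. FDXR, not among the 35, was under 2-fold with both other scalings. The cause of these shifts was not tested. Depth limits genes near 3 UMIs, and the spread between cultures is unknown.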
